A study of Arabidopsis thaliana with 16 samples.

Results

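LTI30, COR47, COR15A and COR15B, a group of cold-regulated genes of Arabidopsis thaliana, were followed in root tips with and without salt. LTI30 (AT3G50970) and COR47 (AT1G20440) encode dehydrins, and COR15A (AT2G42540) and COR15B (AT2G42530) encode chloroplast proteins. They were picked by name and locus, with earlier results of these data known, so a count over the 4 is a description of genes already seen and not an independent sample. They are 4 of the 13286 genes that have a probe set assigned to 1 gene on the ATH1 array, and each has 1 such probe set (252102_at, 259570_at, 263497_at and 263495_at, in the same order). The 16 arrays cover 8 groups of 2 biological replicates: Columbia wild type, the double mutant wer-1 myb23-1 (wer myb23 below), the double mutant cpc-1 try-82 (cpc try below) and the mutant scm-2 (scm below), each on standard medium and on medium with 140 mM NaCl. The age entries and the treatment protocol give seedlings 5 days old that spent 1 hour on the second medium. The growth medium entries, however, give 5 days on the first medium for wild type and wer myb23 and 4 days for cpc try and scm. Which of these holds could not be settled, and if the entries hold, age and genotype cannot be told apart in the comparisons of cpc try and scm with wild type. Each replicate pooled about 30 roots cut about 5 mm above the tip, so an array reports all cell types of the tip together. The mutated genes take part in deciding which epidermal cells grow a root hair.

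Dehydrins are hydrophilic proteins with repeated lysine-rich segments. They accumulate when plant cells lose water through cold, drought or salt, and in the test tube they bind membranes and protect enzymes. COR15A and COR15B are related to the late embryogenesis abundant proteins, are encoded in the nucleus and enter the chloroplast, where they protect membranes during freezing. Genes of both kinds are classic targets of the cold-induced CBF transcription factors and also respond to abscisic acid and to dehydration.

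The arrays had been scaled alike, with a 2% trimmed mean signal of 249.86 to 249.87 and a median signal of 72.6 to 86.1. The titles and the growth medium entries disagree for the mutant arrays titled standard, whose entries name NaCl, and the titles were followed. STZ, a zinc finger regulator that responds to salt, read 40.8 to 131 on the 8 arrays titled standard and 335 to 668 on the 8 titled NaCl, with no overlap. Of the mutated genes, TRY alone had a named probe set. It read 481 to 870 on the arrays labelled cpc try and 1.90 to 49.7 on all the others, so the transcript was higher, not lower, in the arrays labelled with the try-82 allele. Whether that probe set lies in the altered stretch of the gene was not tested, and each value of cpc try below belongs to the arrays with that label. The green tissue marker RCA, which activates the CO2-fixing enzyme, was the 1 of 10 listed markers with a named probe set and read 164 to 343 on standard medium and 183 to 336 on salt. The root hair expansin EXPA7 was the 1 of 12 listed root tip markers with one. It read 4.96 to 1171 on standard medium (median 889) and 17.3 to 1171 on salt (median 782), and was under the 25th percentile signal on 3 arrays. On the log2 scale used below, EXPA7 rose on salt by 1.72 for the arrays labelled cpc try (limma adjusted p = 0.00025). The change was 0.04 in wild type (0.96), -0.45 in wer myb23 (0.38) and 0.19 in scm (0.84), none past the threshold. Which genotypes the 3 low arrays belong to is not given here, and the cause of the cpc try rise was not tested.

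LTI30, a dehydrin built mainly of lysine-rich segments, gave the clearest change of the 4 genes: its signal on salt was between 3.41 and 4.46 times that on standard medium in each genotype. COR47, an acidic dehydrin, was bright on every array and gained 1.32 to 1.58 times. The COR15A and COR15B probe sets were dim on standard medium. When the 4 genotypes were averaged, all 4 genes rose on salt.

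LTI30 in wild type read 5261 and 5492 on standard medium and 17930 and 21602 on salt, in MAS5 signal units. In wer myb23 it read 5218 and 4694, then 23475 and 20730. In cpc try it read 6790 and 4443, then 17512 and 21209. In scm, whose mean on salt was the lowest, it read 4552 and 5764, then 15964 and 19227. Every salt array lay above every standard array, with the lowest salt signal at 15964 and the highest standard signal at 6790. Such a separation of all 8 arrays from all 8 was seen for 4.11% of the 17059 probe sets tested, and among the 4 genes for LTI30 and COR47.

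Ordered by mean signal on standard medium, LTI30 ran from wer myb23 (4956 ± 370, SD, n = 2) through scm (5158 ± 857) and wild type (5376 ± 163) to cpc try (5617 ± 1660). On salt the order was scm (17595 ± 2307), cpc try (19360 ± 2614), wild type (19766 ± 2597) and wer myb23 (22102 ± 1941). No neighbours in either order differed by more than their SDs together. Within an array, the LTI30 probe set ranked from 233 to 391 in brightness among the 22746 probe sets that are not controls on standard medium, and from 5 to 24 on salt. Brightness of different probe sets does not compare transcript numbers, and the rank only places the signal within the array's range.

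On the log2(signal + 4.10) scale, LTI30 rose on salt by 1.87 ± 0.17 (SE) in wild type, with a limma adjusted p of 2.3e-07. The rise was 2.16 in wer myb23, 1.81 for the arrays labelled cpc try and 1.77 for scm, each with the same SE and adjusted p-values of 2.3e-08, 3.8e-07 and 4.5e-07. Averaged over the 4 genotypes it was 1.90 ± 0.09, or 3.74-fold with a 95% interval of 3.30 to 4.24 (limma adjusted p = 5.5e-13). In these whole root tips, a change in the number of cells that hold a transcript and a change in its amount per cell cannot be told apart. The averaged change of LTI30 was greater than that of 98.7% of the probe sets tested.

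**Figure D1:**
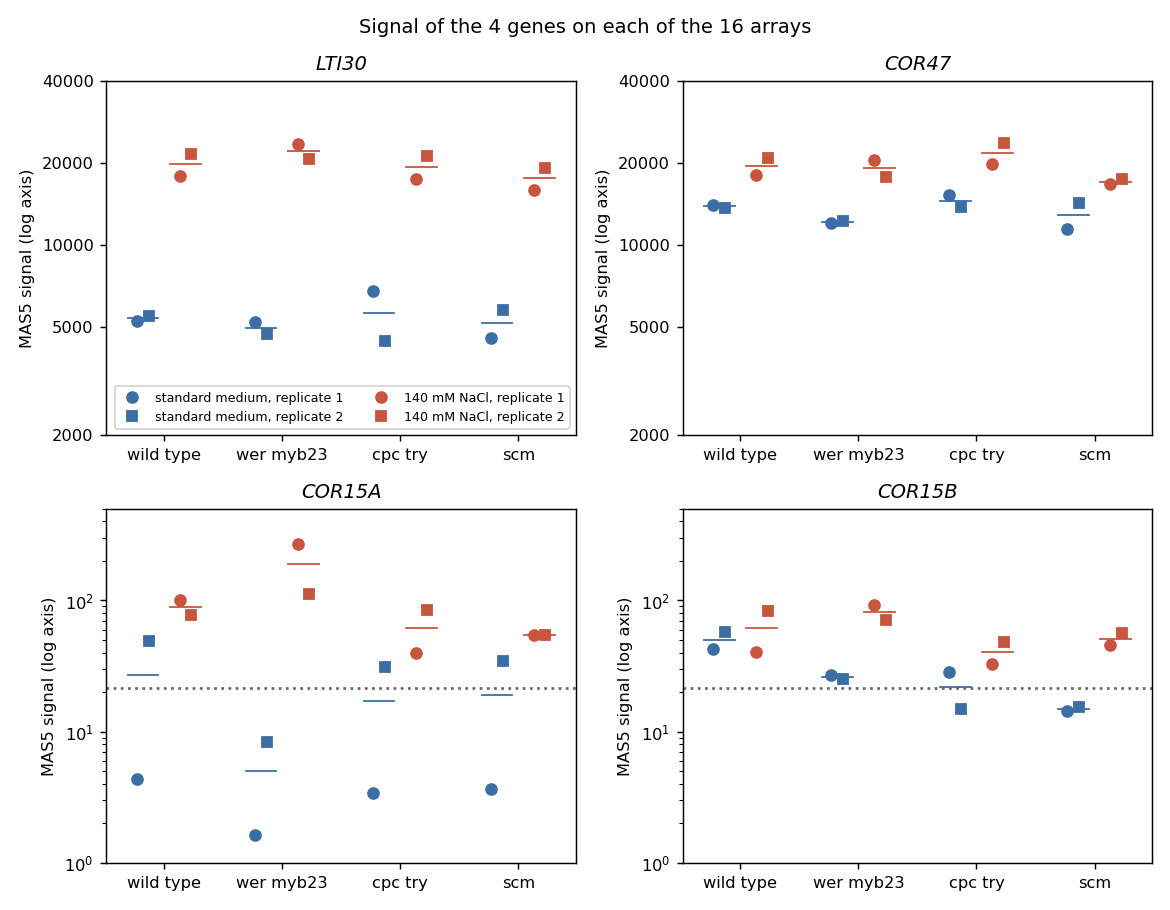
MAS5 signal (log axis) of each gene on each of the 16 arrays, by genotype, with circles for replicate 1, squares for replicate 2 and a bar at the mean of each pair. The dotted line in the lower panels is the 25th percentile signal of the whole table, 21.7; LTI30 and COR47 separate the media on all arrays, while COR15A and COR15B scatter around that line on standard medium.

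COR47 in wild type read 14004 and 13692 on standard medium and 18008 and 20930 on salt. In wer myb23 it read 12041 and 12223, then 20482 and 17829. In cpc try it read 15207 and 13819, then 19793 and 23763. These signals were high on both media, and the step from standard medium to salt was smaller than that of LTI30. In scm it read 11486 and 14261, then 16684 and 17397. The lowest salt signal of COR47, 16684 in scm, lay just above the highest standard signal, 15207 in cpc try, and the media did not overlap.

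The COR47 groups ran on standard medium from wer myb23 (12132 ± 128) through scm (12873 ± 1962) and wild type (13848 ± 220) to cpc try (14513 ± 981). On salt they ran from scm (17041 ± 504) through wer myb23 (19156 ± 1876) and wild type (19469 ± 2066) to cpc try (21778 ± 2807). Neighbours in both orders differed by less than their SDs together. COR47 ranked from 32 to 82 in brightness on standard medium and from 9 to 18 on salt. Its signal was 44.5% to 55.1% of the highest signal of its array on standard medium and 59.5% to 73.2% on salt. The LTI30 signal was 15.7% to 23.0% and 55.3% to 80.9% of the highest, respectively. Whether bright probe sets follow transcript amounts in proportion at this level was not tested.

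COR47 rose by 0.49 ± 0.13 in wild type (limma adjusted p = 0.024), by 0.66 in wer myb23 (0.0020) and by 0.58 for cpc try (0.0069). In scm the difference was 0.41, with an adjusted p of 0.068. The average over genotypes was 0.53 ± 0.07, or 1.45-fold with a 95% interval of 1.31 to 1.60 (limma adjusted p = 2.7e-06). The calls in single genotypes rested on few arrays. The wild type call was lost without standard replicate 1 (adjusted p = 0.086), standard replicate 2 (0.13) or NaCl replicate 2 (0.23), and also with each array centred on its median (0.063), with no filter (0.095) or with no trend (0.14). The wer myb23 call was lost without its NaCl replicate 1 (0.052). The cpc try call was lost without its standard replicate 2 (0.084) or its NaCl replicate 2 (0.077). Scm passed without its standard replicate 2 (0.043) and without either NaCl array of cpc try (0.040 and 0.041).

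COR15A, known as a protein of the chloroplast stroma, read 4.35 and 49.3 in wild type on standard medium and 101 and 77.5 on salt. In wer myb23 it read 1.62 and 8.41, then 267 and 112, the lowest and the highest signals among all 16 arrays. In cpc try it read 3.39 and 31.0, then 39.7 and 84.6. Within each genotype the salt arrays lay above the standard arrays, which held in all 4 genotypes for 7.26% of the probe sets tested and for LTI30, COR47 and COR15A. In scm COR15A read 3.63 and 34.5, then 54.1 and 54.4. Across genotypes the media overlapped, because the wild type standard replicate 2 at 49.3 exceeded the cpc try NaCl replicate 1 at 39.7.

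On standard medium COR15A was under the 25th percentile signal of the table, 21.7, on 5 of 8 arrays, and on salt on 0 of 8. It passed the filter on low signals only through its salt arrays, with a mean of 3.91 on standard medium and 6.46 on salt against a threshold of 4.40 on the log2(signal + 4.10) scale, so a difference between media was built into its inclusion. COR15B had means of 4.89 and 5.90, LTI30 of 12.35 and 14.26, and COR47 of 13.70 and 14.23, above the threshold on both media. Replicate 2 of COR15A was above replicate 1 on standard medium in 4 of 4 genotypes, as for 5.92% of the probe sets tested, and on salt in 2 of 4. The pooled SD between replicates was 1.16 log2 units for COR15A, above that of 98.5% of the probe sets tested. It was 0.37 for COR15B, 0.22 for LTI30 and 0.13 for COR47, against a median of 0.30 over all tested.

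By mean signal COR15A ran on standard medium from wer myb23 (5.02 ± 4.80, SD, n = 2) through cpc try (17.2 ± 19.6) and scm (19.1 ± 21.8) to wild type (26.8 ± 31.8). On salt it ran from scm (54.2 ± 0.16) through cpc try (62.1 ± 31.7) and wild type (89.4 ± 16.9) to wer myb23 (190 ± 110). Wer myb23 was thus at the bottom of the order on one medium and at the top on the other, but neighbours in both orders differed by less than their SDs together.

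COR15A rose in wer myb23 by 4.39 ± 0.91, with a limma adjusted p of 0.0022. Both standard signals of that genotype, 1.62 and 8.41, were under the 25th percentile signal, so the size of the rise was set largely by the constant added before the logarithm. It was 5.13 with a constant of 1, 2.49 with 32 and 2.78 with signals under the 25th percentile set to it, each with a limma adjusted p under 0.05. Its differences were 2.13 in wild type (0.18), 1.94 in cpc try (0.22) and 1.76 in scm (0.33), all short of the threshold. The average over genotypes was 2.55 ± 0.45, or 5.87-fold with a 95% interval of 3.05 to 11.3 (limma adjusted p = 0.00019). The average depended on the constant in the same way and is no measured ratio: it was 3.00 with 1, 1.36 with 32, and 1.51 with signals under the 25th percentile set to it. Without the wer myb23 NaCl replicate 1, which held the signal of 267, the wer myb23 value was 3.78 with an adjusted p of 0.067. Leaving out one standard array moved the wild type value between 0.80 and 3.46, the cpc try value between 0.83 and 3.06 and the scm value between 0.60 and 2.92.

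COR15B, which lies next to COR15A on the chromosome and encodes a close relative, read 42.5 and 57.9 in wild type on standard medium and 40.4 and 83.3 on salt. These wild type pairs overlapped. In wer myb23 it read 27.0 and 25.04, then 92.6 and 70.8. In cpc try it read 28.7 and 14.8, then 32.8 and 48.1, and in scm 14.3 and 15.5, then 45.5 and 56.3. In the mutants both salt arrays lay above both standard arrays. The share of the probe sets tested that separated in this way in the mutants was not counted. COR15B was not among the 7.26% that separated in all 4 genotypes. The signal was under 21.7 on 3 of 8 standard arrays and on 0 of 8 salt arrays. By mean, COR15B ran on standard medium from scm (14.9 ± 0.85) through cpc try (21.8 ± 9.8) and wer myb23 (26.0 ± 1.4) to wild type (50.2 ± 10.9). On salt it ran from cpc try (40.4 ± 10.8) through scm (50.9 ± 7.6) and wild type (61.8 ± 30.4) to wer myb23 (81.7 ± 15.4). The step from wer myb23 to wild type on standard medium was the 1 step between neighbours larger than their SDs together.

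COR15B rose by 1.01 ± 0.27 averaged over genotypes, or 2.02-fold with a 95% interval of 1.37 to 2.97 (limma adjusted p = 0.0069). No single genotype passed the threshold. The differences were 0.21 ± 0.54 in wild type (adjusted p = 0.88), 1.50 for wer myb23 (0.083), 0.82 for cpc try (0.42) and 1.52 for scm (0.099). Without the wild type NaCl replicate 2, the wild type value was -0.27. With a constant of 32 in place of 4.10, the average was 0.59. The wer myb23 difference passed with that constant (0.047), with no trend (0.028), with the signal floor (0.014) and with that genotype's arrays alone (0.027), and the scm difference passed with no trend (0.034).

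Counted by genotype, 2 of the 4 genes rose in wild type (LTI30 and COR47), where 4.99% of the 17059 probe sets tested did. In wer myb23 there were 3 (with COR15A), against 5.98% of all. In cpc try LTI30 and COR47 rose, against 5.42%, and in scm LTI30 alone, against 4.72%. In the average over genotypes 4 of 4 rose, against 13.6%. An exact permutation test of the 8 salt arrays against the 8 standard arrays, two-sided, gave the smallest p it allows, 0.00016, for LTI30 and for COR47. The exact permutation p was 0.00031 for COR15A and 0.0045 for COR15B. COR15A passed the filter only through its salt arrays. Its calls and its p-value here therefore describe a difference partly built into its inclusion.

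**Figure D2:**
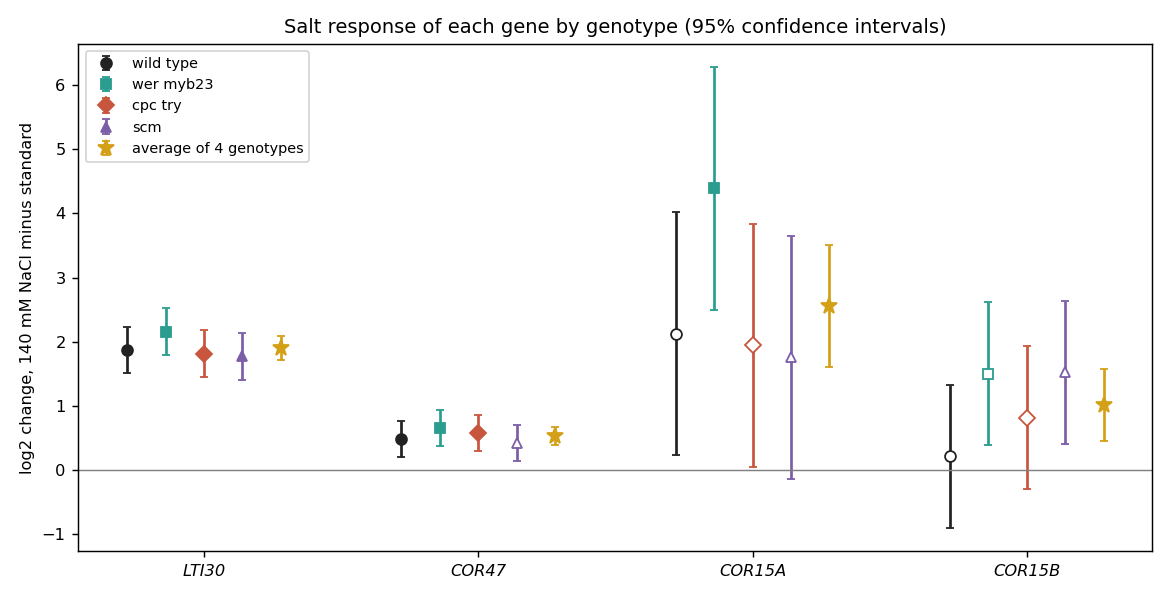
Change on 140 mM NaCl against standard medium (log2 scale) for each gene in each genotype and averaged, with 95% intervals from limma. Filled points have an adjusted p under 0.05 and open points do not; the LTI30 and COR47 intervals are narrow, and those of COR15A are the widest.

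The salt responses of the 4 genes were compared in 6 pairs, by exact permutation tests over the 16 arrays adjusted over the 6. LTI30 rose more than COR47, by 1.37 log2 units (exact permutation adjusted p = 0.00093), and both are measured well above the bottom of the range on each medium. Both are also bright, and whether their signals follow transcript amounts in proportion was not tested, so the 1.37 is a difference in signal. The other pairs hold COR15A or COR15B, whose standard signals lie partly under the 25th percentile, and the size of their differences moved with the constant. LTI30 minus COR15B was 0.89 (exact permutation adjusted p = 0.0053) and 1.30 with a constant of 32. COR15A minus COR47 was 2.02 (exact permutation adjusted p = 0.0053) and 0.82 with 32. COR15A minus COR15B was 1.54 (exact permutation adjusted p = 0.022) and 0.76 with 32. LTI30 minus COR15A was -0.65 (exact permutation adjusted p = 0.23) and turned to 0.54 with 32, and COR47 minus COR15B was -0.48 (0.13) and -0.060 with 32. The log2 differences of these 5 pairs are therefore given as values at a stated constant and not as measured sizes. COR15A also passed the filter only through its salt arrays. The p-values of the pairs that hold COR15A therefore describe a difference partly built into its inclusion.

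None of the 4 genes differed between a mutant and wild type past the threshold on either medium, by limma with all probe sets adjusted together. The mutant comparisons share the wild type arrays. For wer myb23 the count was 0 of 4 on standard medium, against 0.0879% of all probe sets tested, and 0 on salt, against 0.205%. For cpc try it was 0 on standard medium, against 6.24%, and 0 on salt, against 5.59%. For scm it was 0 on standard medium, against 0.0528%, and 0 on salt, against 0.00586%. Without adjustment, 1 of these 24 tests had a p under 0.05, that of COR15B in scm on standard medium. Over all probe sets the unadjusted counts ran from 1187 for scm on salt to 3345 for cpc try on standard medium.

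The intervals show what these comparisons could resolve. LTI30 on standard medium differed from wild type by -0.12 for wer myb23, 0.03 for cpc try and -0.07 for scm, with 95% intervals that together ran from -0.48 to 0.40. COR47 differed by -0.19, 0.07 and -0.11, with intervals that ran from -0.47 to 0.35. For COR15A the differences were -1.33, -0.39 and -0.30, and the interval in wer myb23 alone ran from -3.22 to 0.57. Mutant differences of a few fold in COR15A were therefore not detectable with these arrays.

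COR15B on standard medium was the member whose wild type arrays stood apart, with 42.5 and 57.9 above all 6 mutant arrays, whose highest signal was 28.7. Both wild type arrays were above all mutant arrays for 6.44% of the probe sets tested. The differences from wild type were -0.84 ± 0.54 for wer myb23 (limma adjusted p = 0.71), -1.11 for cpc try (0.26) and -1.50 for scm (0.41, unadjusted 0.011). The 95% interval for scm, not adjusted for the number of tests, ran from -2.62 to -0.38. Both scm signals, 14.3 and 15.5, and the cpc try signal of 14.8 were under the 25th percentile signal, 21.7. How far the sizes of these differences depend on the added constant is not given here. On salt the COR15B differences were 0.45, -0.51 and -0.19, and the wild type arrays lay within the range of the mutants.

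**Figure D3:**
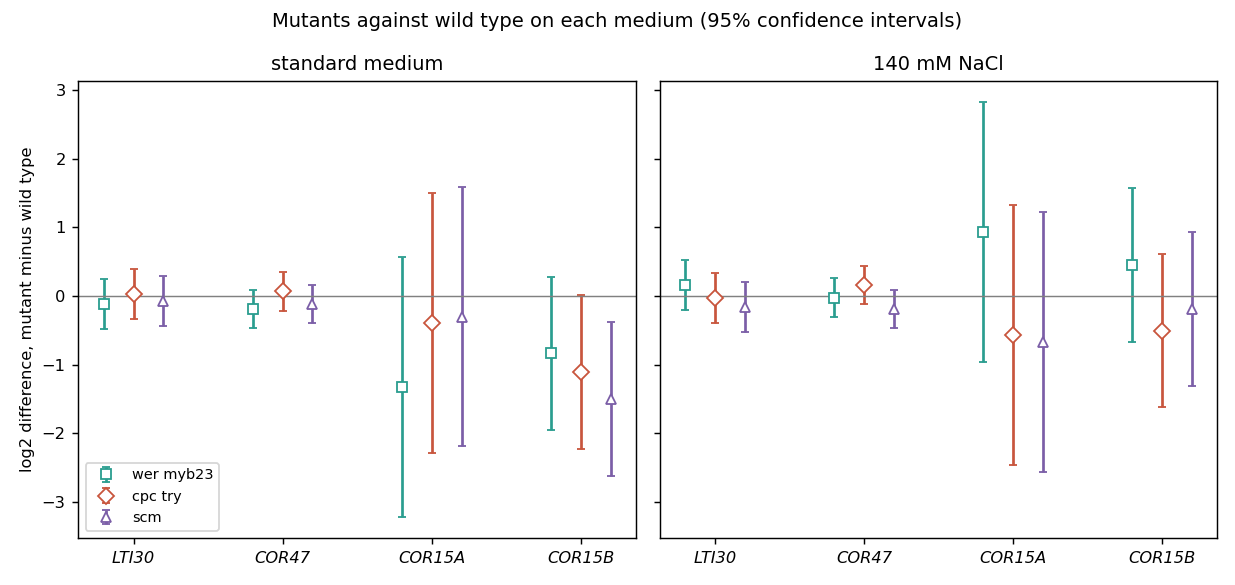
Difference of each mutant from wild type (log2 scale) on standard medium and on salt for the 4 genes, with 95% intervals from limma. All points are open because none has an adjusted p under 0.05, and the COR15B points on standard medium lie farthest below 0 relative to their intervals.

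The salt response itself was compared between each mutant and wild type. The count of the 4 genes past the threshold was 0 in wer myb23 (against 0.00586% of all probe sets tested), 0 in cpc try (0.0176%) and 0 in scm (0%). At an unadjusted p under 0.05 there were 0 of the 4 genes in each, and 860, 1480 and 764 probe sets in all. LTI30 responses differed from wild type by 0.28, -0.06 and -0.10 in these mutants, and COR47 responses by 0.17, 0.09 and -0.07. COR15A in wer myb23, although called there and not in wild type, differed in its response by 2.26 ± 1.28 with a 95% interval of -0.41 to 4.94 (limma adjusted p = 0.95). COR15B responses differed by 1.29 ± 0.76 in wer myb23 and 1.31 ± 0.76 in scm, with intervals that included 0.

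Within a medium, the levels of the 4 genes were set against each other over the 8 arrays in 12 relations, and 0 passed after adjustment. The closest was that of LTI30 with COR15B on salt, with a Pearson r of 0.81 (exact permutation p = 0.016, adjusted 0.15) and a Spearman rho of 0.86 (exact permutation p = 0.011, adjusted 0.13). Without the 2 arrays farthest from the median of LTI30 the r was 0.83. LTI30 with COR47 had an r of 0.70 on standard medium (exact permutation p = 0.043) and 0.62 on salt (0.091), each with adjusted values above 0.05. COR15A with COR15B, although neighbours, had an r of 0.04 on standard medium (exact permutation p = 0.92) and 0.70 on salt (0.050), which was 0.14 without the 2 farthest arrays. All 12 relations run over 4 genotypes with 2 arrays each, so their permutation p-values do not separate genotype differences from scatter between replicates.

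The genes whose signals were most like each of the 4 over all 16 arrays were taken by Pearson's r on the log2 scale, as a description, since all of the arrays split by medium. For LTI30 they were AT5G04760, AT1G49450 and AT1G18460, each with an r of 0.98, and 161 named probe sets reached 0.9. For COR47 they were AT5G10695 (0.96), AT5G54940 (0.95) and AT3G10020 (0.95), with 35 at 0.9 or above. For COR15A they were AT5G13310 (0.92), AT4G09760 (0.90) and AT4G18650 (0.89), and for COR15B AT1G26800 (0.93), AT5G39080 (0.90) and AT4G27450 (0.89). The other members came lower in likeness: LTI30 and COR47 had an r of 0.92 with each other, and COR15A and COR15B had 0.66.

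Few relatives of these genes had a probe set with a single gene name. Of 8 other dehydrins listed, 4 had one and 2 were tested. Both passed the test as higher on salt, where 13.6% of all probe sets tested did, and they differed widely in size. AT4G38410, a dehydrin family gene, read 76.6 to 221 on standard medium and 933 to 2063 on salt without overlap, a change of 3.08 ± 0.13 (limma adjusted p = 2.3e-13). HIRD11, a histidine-rich dehydrin, read 8866 to 12762 and 9640 to 14571 with overlap, a change of 0.20 ± 0.07 (limma adjusted p = 0.041). HIRD11 passed in no single genotype, with values from 0.05 in scm to 0.42 in cpc try. The dehydrin genes AT2G21490 and AT4G39130 were under 21.7 on 12 and 8 of the 16 arrays and were not tested. XERO1, the neighbour of LTI30, and ERD10, the neighbour of COR47, had no named probe set here.

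Of 17 regulators listed, 1 was measured, STZ, which rose by 2.85 ± 0.14 (limma adjusted p = 1.1e-12). None of 12 other cold-regulated genes and none of 10 abscisic acid genes listed had a named probe set, so the CBF and abscisic acid branches were not measured here. Among 5 late embryogenesis abundant genes, picked from the annotation with earlier results known, 4 rose, where 13.6% of all probe sets tested did. Their median was 1.69, against -0.0024 for all tested. LEA4-5 changed by 5.93, more than LTI30, and LEA18 by 4.30. Both had all salt arrays above all standard arrays, as did 4.11% of the probe sets tested. LEA18 was under 21.7 on 5 of the 16 arrays, and how far its value depends on the added constant was not tested. LEA4-1 rose by 1.69 in the average, but its media overlapped and it was under 21.7 on 4 of the 16 arrays. Its wild type value was -0.29 (limma adjusted p = 0.83). LEA26 rose by 0.19 (limma adjusted p = 0.035), but its media overlapped and it passed in no single genotype. LEA27 had a value of -0.14 (limma adjusted p = 0.16). Of 4 genes whose names refer to cold or drought, picked in the same way, 2 rose. COR27 rose by 2.00 ± 0.40 in the average, and among single genotypes it passed in wer myb23 alone (limma adjusted p = 0.017). It read 1.82 to 32.8 on standard medium (median 12.4) and 15.1 to 113 on salt (median 65.0), with overlap. It was under 21.7 on 7 of the 16 arrays. Whether it passed the filter only through its salt arrays, and how far its value depends on the added constant, was not tested. SRC2 rose by 1.78 ± 0.13, and DI19 (0.29) and DI21 (0.15) did not pass. The green tissue marker RCA changed by 0.18 ± 0.13 (limma adjusted p = 0.34), and its part in the COR15A and COR15B values was not tested.

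**Figure D4:**
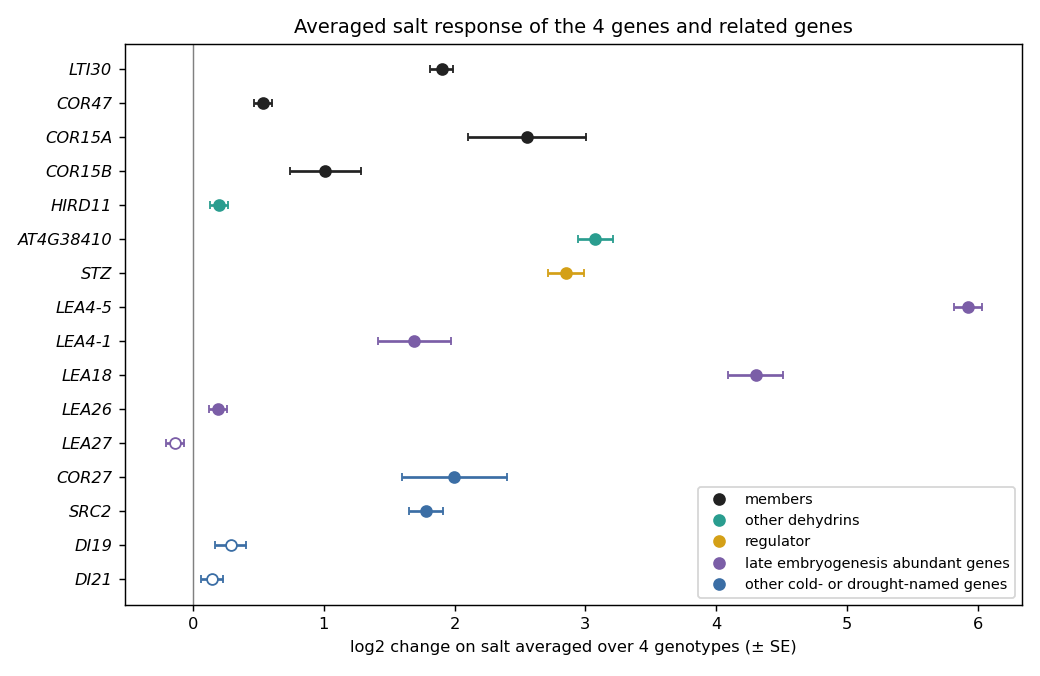
Salt change averaged over the 4 genotypes (log2 scale, bars show ± SE from limma) of the 4 genes and of the listed genes that were tested. Filled points have an adjusted p under 0.05 and open points do not; LEA4-5 at 5.93 and LEA18 at 4.30 lie above all 4 genes, and HIRD11 and LEA26 lie near 0.20.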

How the data were processed

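Total RNA from pooled root tips was labelled with biotin after one-cycle amplification and hybridised to Affymetrix ATH1 arrays, per the labels' protocols. The deposited values are linear MAS5 signal intensity per probe set, per the submitters' processing notes, and the sources used here do not give its version or settings. Of 22810 probe sets, 64 are controls, 13513 have 1 gene in the platform annotation, 503 have several and 8730 have none listed. RefSeq TAIR10.1 was used for names and neighbours. The members and the gene lists were chosen with earlier results of these data known, and the late embryogenesis and cold- or drought-named lists after the annotation was read.

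Signals were transformed as log2(signal + 4.10), the 10th percentile of the table, and probe sets with a mean above the transformed 25th percentile (17059) were fitted in limma 3.58.1 (R 4.3.3) with 8 group means, a mean-variance trend and Benjamini-Hochberg adjustment over all of them at 0.05. Exact permutation tests used SciPy 1.17.1. All members were named, each other gene came from a list, and the 3 genes of highest r were named per member. Scripts were tested on simulated data. Replicate numbers were not treated as pairs, because deviations of same-numbered arrays correlated between -0.034 and 0.052 over 28 pairs of groups. The labels call the replicates biological, and 2 arrays a group limit the precision. The alternatives are in the closing section. Promoter and protein features were planned but not analysed here.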

Additional observations from a re-analysis of the deposited data

How the results depend on the processing

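The 4 averaged salt responses kept their direction and their call under every alternative that tested them, and leaving out each array moved them from 1.83 to 1.98 for LTI30, 0.50 to 0.57 for COR47, 2.22 to 2.89 for COR15A and 0.89 to 1.14 for COR15B. The stricter filter (mean at or above the median of all probe set means) removed COR15A and COR15B, so 2 genes were called there. In wild type 1 gene was called with no filter, with median-centring or with no trend, and in cpc try 1 with no trend or with only the genotypes compared. In scm 2 were called with a constant of 32, the stricter filter, quantile normalization, no trend or only the genotypes compared. Leaving out one array gave 1 to 2 called genes in wild type, 1 to 3 in wer myb23, 1 to 2 in cpc try and 1 to 2 in scm. The replicate block changed no call: 2, 3, 2 and 1 genes in wild type, wer myb23, cpc try and scm, and 4 in the average. The signal floor and the permutation over arrays were chosen after seeing the data.

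Uncalled differences near 0 changed sign, and the cause was not tested. With median-centring COR47 in wer myb23 on salt was 0.050, LTI30 in cpc try on salt 0.11, LTI30 in scm on standard medium 0.021, and the r of COR47 with COR15B on salt -0.0089. With quantile normalization COR47 in wer myb23 on salt was 0.16, LTI30, COR47 and COR15B in scm on salt were 0.037, 0.034 and 0.042, and the scm salt response against wild type was 0.072 for LTI30 and 0.043 for COR47. With it, COR15B had an r of -0.049 with COR47 and -0.0051 with COR15A on standard medium, and 1 of 12 relations passed, LTI30 with COR15B on salt (r 0.90, exact permutation adjusted p = 0.038). With a constant of 32 the LTI30 response exceeded that of COR15A by 0.54.

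Leaving out one array also turned differences from wild type. For COR15A on standard medium they ran from -2.66 to 0.0015 in wer myb23, -1.72 to 0.94 in cpc try and -1.63 to 1.03 in scm, and the response differences from -1.52 to 1.15 in cpc try and -1.70 to 0.96 in scm. For COR15B the wild type response ran from -0.27 to 0.70, and the differences on salt from -0.039 to 0.94 in wer myb23 and -0.68 to 0.30 in scm. For COR47 the ranges were -0.13 to 0.086 (wer myb23, salt), -0.0030 to 0.14 (cpc try, standard), -0.27 to 0.042 (scm, standard), -0.038 to 0.23 (cpc try response) and -0.23 to 0.081 (scm response). For LTI30 they were -0.17 to 0.11 (cpc try, salt), -0.27 to 0.34 (cpc try, standard), -0.24 to 0.10 (scm, standard), -0.37 to 0.24 (cpc try response) and -0.27 to 0.072 (scm response).

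Counts of all called probe sets moved by over 1.5 times between settings. For the salt response they were 917 to 1703 in wild type (1516 as reported), 989 to 2499 in wer myb23 (1872), 886 to 1756 in cpc try (1639) and 694 to 1739 in scm (1338). Against wild type on standard medium and on salt they were 2 to 37 (15) and 8 to 58 (35) in wer myb23, 596 to 1290 (1064) and 547 to 1080 (953) in cpc try, and 3 to 39 (9) and 0 to 41 (1) in scm. For differences in response they were 0 to 7 (1), 1 to 41 (3) and 0 to 6 (0), respectively. COR15A and COR15B are limited by signals near the bottom of the range on standard medium.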
